A study of Mus musculus with 2 samples.

Results

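The machinery of regulated hormone secretion was examined in single cells of mouse pancreatic islets as 35 genes that encode SNARE proteins, their regulators and proteins of the secretory granule. Of 36 names in the list, 35 had a row among the 33038 genes of the series, and the remaining name, Piccolo, is the protein made by Pclo, which was already listed. The list was drawn up by known role. The islets came from C57BL/6J mice at 8 weeks of age and are labelled as control, with no allele or agent named. The same islet preparation gave 2 technical replicates, library 1 and library 2, each made from 10000 input cells with RevGel-seq, in which every cell is linked to a barcoded bead and lysed inside a gel that can be melted again. How many mice were pooled is not stated in the labels.

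Islet hormones are stored in dense-core granules and leave the cell when the granule fuses with the plasma membrane after calcium entry. Fusion is driven by SNARE proteins, with syntaxins and SNAP25 on the plasma membrane and VAMP proteins on the granule, which zip together and pull both membranes into contact. Syntaxin-binding proteins, Munc13 and CAPS proteins prepare the complex, complexins hold it near fusion, and NSF with its SNAP adaptors takes it apart afterwards. Rab3 and Rab27 GTPases with their effectors tether granules, and RIM, ELKS and piccolo scaffolds gather them near calcium channels. Insulin is the hormone of beta cells, glucagon (Gcg) of alpha cells, somatostatin (Sst) of delta cells and pancreatic polypeptide (Ppy) of gamma cells.

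Cells were grouped by the hormones that reached 1% of their UMIs (deduplicated transcripts), with Ins1 and Ins2 added together. Of 1483 cell barcodes, 735 in library 1 and 748 in library 2, a single hormone marked 908. These were 372 cells with insulin only, 356 with Gcg only, 58 with Sst only and 122 with Ppy only. Further groups held 151 cells with Gcg and Ppy, 148 with Sst and Ppy, 64 with insulin plus another hormone and 183 with no hormone, while 29 cells of other combinations were left out. Levels are given as CPM, that is UMIs of a gene per 1000000 UMIs of the summed group without the 5 hormone genes, always first for library 1 and then for library 2. The sums held 298300 to 2823605 such UMIs. Because both libraries came from a single preparation, every p-value below measures the spread between technical replicates and no difference between animals. This spread was estimated over all 8 groups together, and is not that of the compared groups alone.

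Each set of endocrine markers, made of genes other than the hormones, was highest in the group of its own hormone. Beta cell markers (8 genes, among them Mafa and Ucn3) summed to 55617 and 57159 CPM in insulin only and to 1895 to 15541 CPM in the other single-hormone sums. Alpha, delta and gamma markers were likewise highest in the Gcg, Sst and Ppy groups, at 46127 and 47686, 7043 and 7023, and 54655 and 42019 CPM. Within Sst only, however, the delta markers were not the largest sum. Beta markers stood there at 15299 and 15541 CPM and gamma markers at 12952 and 13322 CPM. Markers of other cell types moved between libraries: endothelial markers (8 genes) ranged from 34.5 to 624 CPM over the 8 single-hormone sums, with the highest value in Sst only of library 1 against 53.6 CPM in library 2, and leukocyte markers (8 genes) from 6.70 to 286 CPM. Acinar markers (6 genes) summed to 312 and 154 CPM in Sst only against 6.64 to 21.5 CPM in the other single-hormone sums, and Cela1 made up 309.8 and 151 CPM of this, while Cpa1, Cela2a and Pnlip had 0 UMIs there. The no-hormone group was a mixture, with 62 cells rich in endothelial markers, 87 rich in leukocyte markers, 32 others and 2 very deep barcodes of library 2 rich in the neuronal tubulin Tubb3. Those 2 barcodes carried 177211 and 95959 UMIs without hormones and are described separately, since they touch several results. The part of endothelial and leukocyte markers was tested only by leaving out the hormone cells that held them, with the counts given at the end. The part of acinar markers was not tested. Results without the Tubb3-rich barcodes are given where they matter. The tables shared 0 barcodes.

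Among the 4 single-hormone groups, calls were most often made for Rab, scaffold and granule membrane genes. Of 33 genes with enough counts to be tested, 18 passed the threshold in at least 1 of 6 contrasts (edgeR, adjusted p below 0.05 over 14528 genes), as did 39.3% of all genes tested. They were all 5 Rab GTPases, 4 of 5 active zone scaffold genes (Rims1, Rims2, Erc2, Pclo), 3 of 4 granule membrane genes (Ptprn2, Sv2a, Sv2b), the priming factors Unc13a and Cadps, and Stxbp5l, Stx1a, Napa and Rph3al. By mean level, 8 of these were highest in insulin only, 4 in Gcg only, 5 in Sst only and 1 in Ppy only. The other 15 passed in none of the contrasts, and their highest and lowest group means differed by 1.17 to 2.04-fold, with a median of 1.38. Among them, Snap25, Cplx2 and Napb each passed in a contrast once the Tubb3-rich barcodes were left out, as given below.

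Counted by contrast, 14 of 33 genes differed between insulin only and Gcg only, where 25.6% of all genes tested were called. Of these, 9 higher beside 12.9% of all genes, and 5 lower beside 12.6%. Insulin only differed from Ppy only in 11 (all genes 20.7%), of which 7 higher beside 10.2% of all genes, and 4 lower beside 10.5%. Insulin only differed from Sst only in 10 (all genes 14.7%), of which 7 higher beside 7.4% of all genes, and 3 lower beside 7.32%. Between Gcg only and Sst only 9 genes differed (all genes 12.8%), of which 3 higher beside 6.02% of all genes, and 6 lower beside 6.8%. Between Sst only and Ppy only the number was 6 (all genes 9.47%), of which 4 higher beside 4.95% of all genes, and 2 lower beside 4.52%. The fewest calls were between Gcg only and Ppy only, with 4 or 12.1%, near the 9.84% of all genes, of which 1 higher beside 4.78% of all genes, and 3 lower beside 5.05%. The median absolute log2 fold change of the 33 genes was below that of all genes tested in each of the 6 contrasts, for example 0.32 against 0.46 between insulin only and Gcg only, while the largest changes were held by few genes. With 23 cells drawn into every sum 6, 6, 6, 8, 7 and 0 genes were called in the same order of contrasts, and with only the 4 single-hormone groups in the fit the last 2 contrasts gave 10 and 7. The share of all genes called was not counted in these alternatives. Whether such changes concern the list or the whole fit therefore cannot be told. With fewer cells the calls of Pclo, Cadps, Erc2, Rab3c, Rab27a and Napa passed wherever they had passed with all cells.

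**Figure D1:**
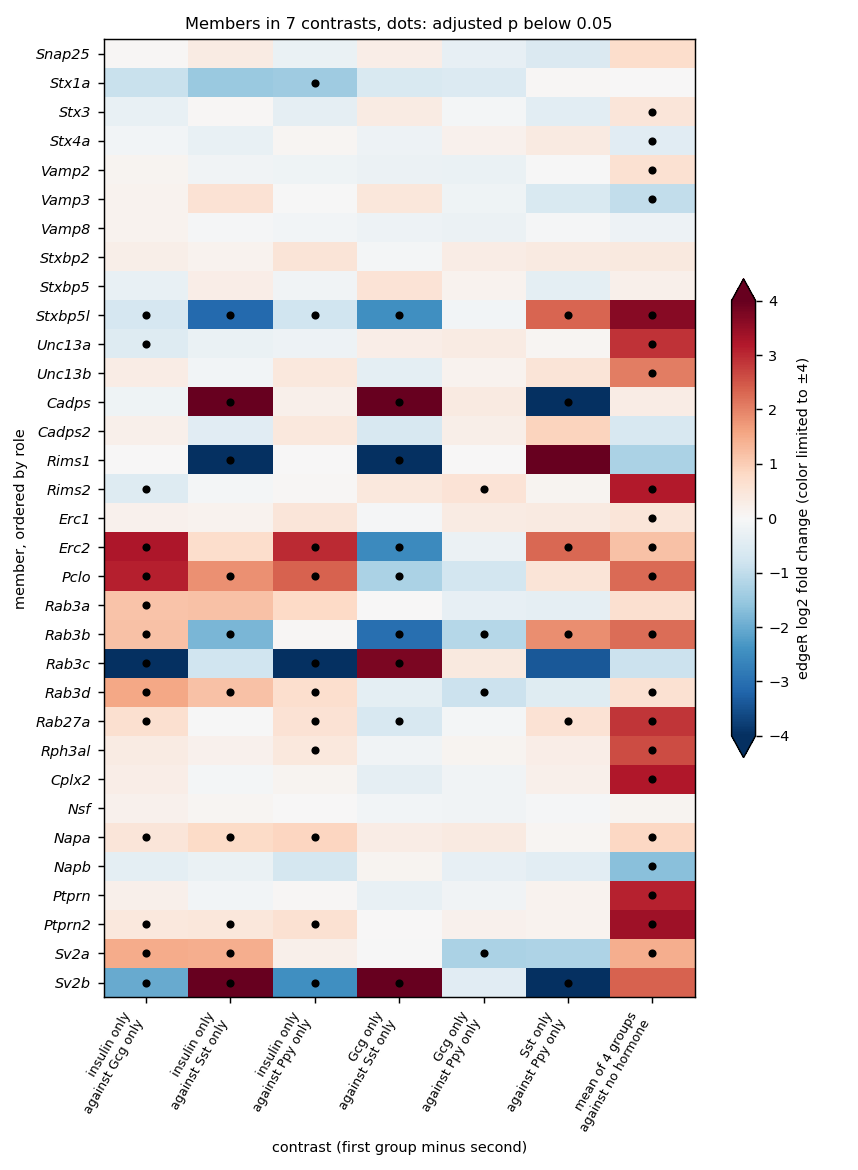
Log2 fold changes (color, edgeR) of the 33 tested genes, in rows ordered by role, for the 6 contrasts between single-hormone groups and for the mean of those groups against no-hormone cells, in columns. Black dots mark adjusted p below 0.05 in the fit that includes the Tubb3-rich barcodes. The dots gather on the scaffold, Rab and granule membrane rows, while 15 rows, most SNARE rows among them, have no dot in the first 6 columns.

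Among the SNARE genes of the plasma membrane, Snap25, whose product supplies helices to the fusion complex, was at 297 and 296 CPM in insulin only, 301 and 276 in Gcg only, 272 and 245 in Sst only and 372 and 355 in Ppy only. The Ppy values lay above the other 6, but no contrast passed the test. For Snap25 the largest difference, Sst only against Ppy only, was -0.58 ± 0.66 with adjusted p = 0.674 (log2 fold change ± SE), and -0.58 ± 0.13 with adjusted p = 0.00580 once the 2 Tubb3-rich barcodes were left out. Stx1a, the syntaxin most often paired with Snap25, was counted sparsely, at 9.97 and 9.26 CPM in insulin only, 20.6 and 15.6 in Gcg only, 41.8 and 13.4 in Sst only and 26.6 and 27.0 in Ppy only. It was lower in insulin only than in Ppy only, at a log2 fold change of -1.43 ± 0.40 with adjusted p = 0.0156. The Sst only libraries lay on either side of all Gcg and Ppy values, and 47.8% of their 23 Stx1a UMIs came from 3 cells. Insulin only against Sst only reached -1.48 ± 0.50 with adjusted p = 0.0559, and 0.0258 without the Tubb3-rich barcodes.

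Stx3 and Stx4a encode syntaxins with wider roles in membrane traffic. Stx3 ranged from 38.4 to 68.0 CPM over the 8 single-hormone sums and Stx4a from 118 to 189 CPM, and neither passed in any of the 6 contrasts. The vesicle SNAREs passed in none of them either. Vamp2, the VAMP of regulated secretion, was at 178 and 185 CPM in insulin only, 164 and 181 in Gcg only, 239.5 and 194 in Sst only and 205 and 211 in Ppy only. Insulin only overlapped Gcg only, Sst only overlapped Ppy only, and the largest Vamp2 difference was -0.26 ± 0.26 with adjusted p = 0.642 for Gcg only against Ppy only. That fit included the Tubb3-rich barcodes, which held 72.3% of the Vamp2 UMIs of no-hormone cells in library 2. Vamp3, a VAMP of recycling and constitutive traffic, ranged from 52.7 to 78.0 CPM, and Vamp8, found on endosomes and secretory lysosomes, from 109 to 154 CPM.

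Of the syntaxin-binding genes, Stxbp5l stood apart in Sst only. Stxbp5l encodes tomosyn-2, which binds syntaxin and SNAP25 in place of VAMP and holds back fusion. Its level was 246 and 221 CPM in Sst only, against 24.7 and 24.4 in insulin only, 44.2 and 35.8 in Gcg only and 45.5 and 41.6 in Ppy only. Both Sst values lay above all 6 others, by 2.33 ± 0.18 with adjusted p = 2.52e-07 over Ppy only. Insulin only was lower than Sst only at a log2 fold change of -3.12 ± 0.19 with adjusted p = 4.91e-09, and lower than Gcg only at a log2 fold change of -0.67 ± 0.18 with adjusted p = 0.00969. The latter did not pass at a hormone threshold of 5% (-0.31, adjusted p = 0.163). The related tomosyn gene Stxbp5 ranged from 33.0 to 67.0 CPM and passed in no contrast, and the libraries of Sst only lay far apart (33.0 and 63.7 CPM). Stxbp2, which encodes the syntaxin partner Munc18-2, was at 141 and 70.4 CPM in Sst only and passed in none either.

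Of the priming factors, Cadps (CAPS1, a protein of dense-core granule priming) was almost absent from Sst only. It was at 237 and 218 CPM in insulin only, 267 and 249 in Gcg only and 204 and 198 in Ppy only, but at 4.39 and 0 in Sst only, where 2 UMIs from 1 of 58 cells were counted. Over both libraries Cadps was higher in Gcg only than in Sst only at a rate ratio of 97.0 (95% exact interval 26.8 to 802), adjusted p = 2.63e-05. The ratio was 85.9 (95% exact interval 23.7 to 711) for insulin only, adjusted p = 3.82e-05, and 75.5 (95% exact interval 20.8 to 625) for Ppy only over Sst only, adjusted p = 1.17e-04. Among the 3 other groups no Cadps contrast passed, except Gcg only against Ppy only with just the 4 single-hormone groups in the fit (adjusted p = 0.0228). Cadps2, its paralog, was at 24.2 and 36.9 CPM in Sst only and 14.0 to 25.7 CPM in the other single-hormone sums. Its difference between Sst only and Ppy only was 0.88 ± 0.59 with adjusted p = 0.422. Unc13a (Munc13-1, which opens syntaxin for assembly) was at 57.9 and 61.1 CPM in insulin only and 87.2 and 86.8 in Gcg only, a difference of -0.52 ± 0.17 with adjusted p = 0.0340 that did not hold with DESeq2 (adjusted p = 0.143) and turned direction with 23 cells per sum. Unc13b (Munc13-2) ranged from 42.1 to 87.9 CPM and passed in none.

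Among the scaffold genes, Pclo and Erc2 were highest in insulin only. Pclo encodes piccolo, a very large scaffold of the synaptic active zone that also binds Rab3 partners in beta cells. It was at 1019 and 1127 CPM in insulin only, 319 and 349 in Sst only, 239.8 and 192 in Ppy only and 129 and 126 in Gcg only. The 4 groups did not overlap. The rise of insulin only over Gcg only was 3.10 ± 0.24 with adjusted p = 4.39e-08, over Ppy only 2.35 ± 0.23 with adjusted p = 1.18e-06 and over Sst only 1.83 ± 0.24 with adjusted p = 4.98e-05. Sst only was above Gcg only, with Gcg minus Sst at -1.27 ± 0.25 with adjusted p = 0.00201. Between Ppy only and its neighbours in this order the differences missed the threshold, with -0.74 ± 0.23 with adjusted p = 0.0540 for Gcg minus Ppy and 0.53 ± 0.25 with adjusted p = 0.217 for Sst minus Ppy. Both passed without the Tubb3-rich barcodes (adjusted p = 0.00227 and 0.0445), and Gcg minus Ppy also passed with the library as a replicate block (adjusted p = 0.0414).

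Erc2 (CAST, an ELKS-family scaffold that binds RIM and piccolo) had a pattern of insulin and Sst. It was at 135 and 124 CPM in insulin only and 103 and 67.0 in Sst only, against 12.2 and 15.6 in Gcg only and 21.5 and 12.9 in Ppy only. The first pair of groups lay above the second in every library. Insulin only exceeded Gcg only by 3.23 ± 0.29 with adjusted p = 2.54e-07, and Sst only exceeded Ppy only by 2.30 ± 0.39 with adjusted p = 8.36e-04, whereas insulin only and Sst only differed by 0.70 ± 0.30 with adjusted p = 0.146, which passed with only the 4 single-hormone groups in the fit (adjusted p = 0.0216). The Sst difference from Ppy was called with the hormone threshold at 1% but not at 0.5% (adjusted p = 0.0562). Its paralog Erc1 ranged from 35.2 to 63.7 CPM and passed in none.

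The RIM genes differed in other groups, Rims2 in Gcg only and Rims1 in Sst only. Rims2, which links Rab3 on granules to calcium channels, was at 192 and 194 CPM in Gcg only, 156 and 154 in Sst only, 136 and 133 in Ppy only and 128 and 139.8 in insulin only. Gcg only was above both insulin only (-0.51 ± 0.14 with adjusted p = 0.0107 for insulin minus Gcg) and Ppy only (0.54 ± 0.14 with adjusted p = 0.0212 for Gcg minus Ppy), and not above Sst only by the test (0.43 ± 0.16 with adjusted p = 0.106). Rims1 was nearly uncounted, with 6 and 2 UMIs in Sst only from 4 cells and 0 in each library of the other single-hormone groups. Against a floor of 3 counts over a group, Sst only was at least 18-fold higher than insulin only (adjusted p = 0.0298) and at least 19.3-fold higher than Gcg only (adjusted p = 0.0300). With DESeq2 the first did not pass (adjusted p = 0.096), and the second received no adjusted p. A further 10 UMIs of Rims1 were in cells with Sst and Ppy, all in library 1. Rims1 met the count filter only through cells with Sst, the cells where it is high. The adjusted p-values of Rims1 therefore rest on the counts that let it into the test, and are no separate support.

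Each of the 5 Rab genes, which encode GTPases on the granule surface, differed in some contrast. Rab3b was highest in Sst only, at 288 and 245 CPM against 61.3 and 76.2 in insulin only, 75.6 and 62.2 in Ppy only and 31.2 and 30.5 in Gcg only. Sst only exceeded Ppy only by 1.87 ± 0.27 with adjusted p = 1.64e-04, and Gcg only was lower than Sst only at a log2 fold change of -3.01 ± 0.27 with adjusted p = 7.48e-07. Gcg only was also lower than insulin only, with insulin minus Gcg at 1.18 ± 0.25 with adjusted p = 0.00225.

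Rab3c was high in the other pair of groups than Erc2. It was at 204 and 198 CPM in Gcg only and 148 and 161 in Ppy only, but at 10.7 and 5.47 in insulin only and 22.0 and 6.70 in Sst only. The Gcg and Ppy values lay above the other 4 in every library. Insulin only was lower than Gcg only at a log2 fold change of -4.58 ± 0.77 with adjusted p = 2.53e-04 and lower than Ppy only at a log2 fold change of -4.19 ± 0.79 with adjusted p = 9.85e-04, and Gcg minus Sst was 3.77 ± 1.05 with adjusted p = 0.0238. Sst only against Ppy only was -3.38 ± 1.09 with adjusted p = 0.0626, and -3.38 ± 0.31 with adjusted p = 1.23e-07 without the Tubb3-rich barcodes, which held 98.7% of the Rab3c UMIs of the no-hormone cells in library 2.

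Rab3d and Rab3a were both highest in insulin only, with Ppy only next. Rab3d was at 194 and 219.8 CPM there, 129.8 and 135 in Ppy only, 96.7 and 107 in Sst only and 71.6 and 72.2 in Gcg only, and the 4 groups did not overlap. The difference from Gcg only was 1.55 ± 0.17 with adjusted p = 3.09e-06 and from Sst only 1.17 ± 0.21 with adjusted p = 0.00103. Rab3a was at 112 and 121 CPM in insulin only and 48.9 to 68.6 CPM in the other 6 sums, so that insulin only did not overlap them. It passed against Gcg only (1.14 ± 0.31 with adjusted p = 0.0103). Against Sst only and Ppy only Rab3a gave 1.16 ± 0.41 with adjusted p = 0.0718 and 0.81 ± 0.32 with adjusted p = 0.0846, and both passed without the Tubb3-rich barcodes (adjusted p = 0.00148 and 0.00177). Exons of another gene overlap 10 genes of the list on the opposite strand, among them Rab3a (Mpv17l2), Pclo, Erc1, Erc2, Rab3b, Unc13a, Ptprn, Doc2b and Sv2b, and reads of both cannot be told apart if strand was not used in counting, which is not stated.

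Rab27a, the GTPase that recruits granules to the cell cortex, divided the groups in another way, at 353 and 348 CPM in insulin only and 336 and 446 in Sst only against 235 and 221 in Gcg only and 244 and 239.8 in Ppy only. Insulin minus Gcg was 0.64 ± 0.14 with adjusted p = 0.00195 and insulin minus Ppy 0.57 ± 0.14 with adjusted p = 0.00728. Sst minus Ppy was 0.58 ± 0.15 with adjusted p = 0.0223, and did not pass at a hormone threshold of 0.5% (adjusted p = 0.068). Exons of Gm27186 overlap Rab27a on the same strand, so part of its count is uncertain. Rph3al (Noc2, an effector of Rab3 and Rab27) was more even, at 105 and 101 CPM in insulin only and 81.6 and 74.5 in Ppy only. That difference was 0.44 ± 0.15 with adjusted p = 0.0434, and 0.0537 with the library as a replicate block (0.121 with DESeq2). The calcium sensor gene Doc2b was under the filter, with 5 and 8 UMIs in insulin only and 0 to 4 in each other single-hormone sum.

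**Figure D2:**
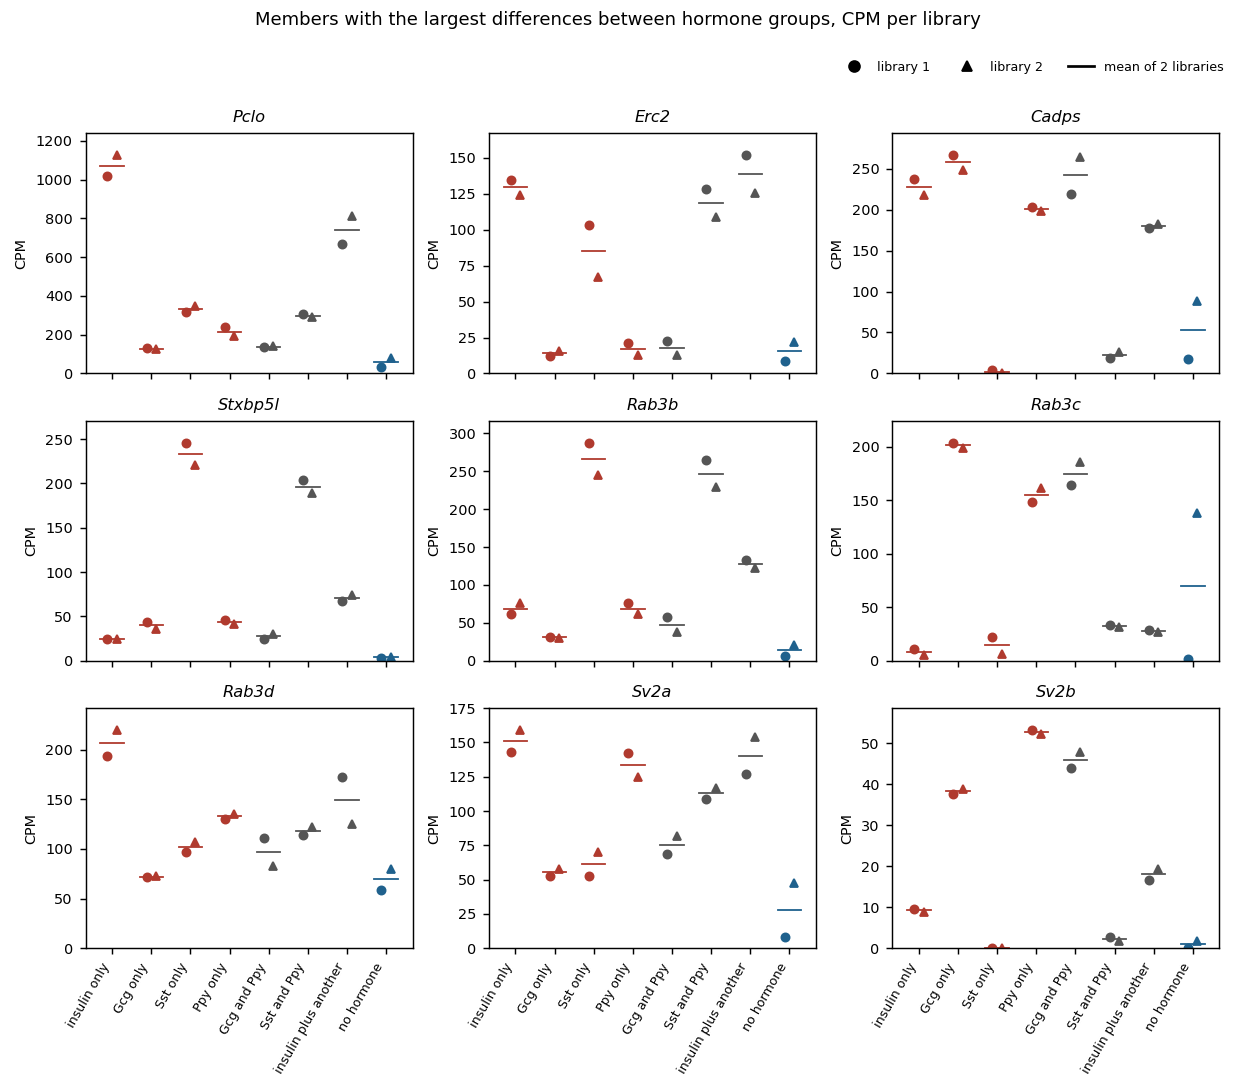
Levels of 9 genes (CPM, vertical axes from 0) in the 8 cell groups (horizontal axes), with circles for library 1, triangles for library 2 and a line at their mean; red marks single-hormone groups, grey cells with several hormones and blue no-hormone cells. Pclo stands highest in insulin only (1019 and 1127 CPM), Cadps is at or near 0 in Sst only, Stxbp5l and Rab3b rise in Sst only, and Rab3c and Sv2b rise in Gcg only and Ppy only.

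Of the genes that act around the assembled complex, Napa alone passed between single-hormone groups. Cplx2, a complexin that clamps and then promotes fusion, was at 740.0 and 871 CPM in insulin only, 713 and 639 in Gcg only, 956 and 929 in Sst only and 746 and 772 in Ppy only. No Cplx2 contrast passed, and the closest was Gcg only against Sst only (-0.37 ± 0.12 with adjusted p = 0.0515), which passed without the Tubb3-rich barcodes (adjusted p = 0.0371). Cplx1 had 1 UMI in all single-hormone cells together and was not tested. Nsf, the ATPase that recycles SNARE complexes, ranged from 80.8 to 104 CPM and passed in none. Napa (alpha-SNAP, its adaptor) was at 237 and 299 CPM in insulin only, 211 and 179 in Gcg only, 163 and 184 in Sst only and 156 and 147 in Ppy only. The insulin values lay above the others, by 0.86 ± 0.14 with adjusted p = 3.09e-04 over Ppy only, 0.77 ± 0.16 with adjusted p = 0.00339 over Sst only and 0.48 ± 0.14 with adjusted p = 0.0141 over Gcg only. Napb (beta-SNAP) ranged from 23.6 to 51.6 CPM and passed in none, but gave -0.71 ± 0.25 with adjusted p = 0.0424 for insulin minus Ppy without the Tubb3-rich barcodes.

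Among proteins of the granule membrane, Ptprn2 (phogrin, a phosphatase-like protein of dense-core granules) was at 388 and 418 CPM in insulin only, 316 and 295 in Gcg only, 312 and 339 in Sst only and 258 and 286 in Ppy only. It was higher in insulin only than in each other group, by 0.60 ± 0.13 with adjusted p = 0.00239 over Ppy only. The step over Sst only, 0.45 ± 0.14 with adjusted p = 0.0351, did not pass with DESeq2 (adjusted p = 0.0595). Its relative Ptprn (IA-2) was at 353 and 363, 318 and 319, 369 and 479 and 360.1 and 348 CPM in the same groups and passed in none.

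The SV2 genes encode transporter-like proteins of secretory vesicles. Insulin only was above Gcg only for Sv2a and below it for Sv2b, while Ppy only was high and Sst only low for both. Sv2a was at 143 and 159 CPM in insulin only and 143 and 125 in Ppy only, against 52.9 and 57.7 in Gcg only and 52.7 and 70.4 in Sst only, with no overlap between these pairs. Insulin minus Gcg was 1.47 ± 0.32 with adjusted p = 0.00209, insulin minus Sst 1.46 ± 0.43 with adjusted p = 0.0279 and Gcg minus Ppy -1.26 ± 0.33 with adjusted p = 0.0203. The difference from Sst did not pass at a hormone threshold of 0.5% (adjusted p = 0.0539). Sst minus Ppy was -1.25 ± 0.44 with adjusted p = 0.0891, and passed without the Tubb3-rich barcodes (adjusted p = 5.47e-04). Sv2b was at 53.3 and 52.2 CPM in Ppy only, 37.7 and 39.0 in Gcg only and 9.60 and 8.84 in insulin only, and had 0 UMIs in Sst only. Insulin only was lower than Gcg only at a log2 fold change of -2.02 ± 0.30 with adjusted p = 9.07e-05 and lower than Ppy only at a log2 fold change of -2.47 ± 0.30 with adjusted p = 2.09e-05. Counted against the floor of 3 UMIs in Sst only, Sv2b was at least 13.2-fold higher in Ppy only (adjusted p = 3.89e-05) and at least 9.63-fold higher in Gcg only (adjusted p = 7.28e-05), and at least 2.32-fold higher in insulin only (adjusted p = 0.0112).

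The upstream sequences of 6 genes with large differences between groups are shown, chosen after their values were seen. Pclo and Erc2 were highest in insulin only, Stxbp5l and Rab3b in Sst only, and Cadps and Rab3c in Gcg only, although in insulin only Cadps was high and Rab3c low. Each run is the exon-free part of the 250 bases before the start of the gene in RefSeq (GRCm38.p6), 5′ to 3′ on the strand of the gene. Capitals mark matches to a GC box (GGGCGG, or CCGCCC on the other strand), a CCAAT box (CCAAT or ATTGG) or an E-box (CANNTG, the same on both strands). The windows are chr5:14514668-14514917 on the plus strand for Pclo, chr14:27622157-27622406 on the plus strand for Erc2, chr16:37384963-37385208 on the minus strand for Stxbp5l, chr4:108878820-108879062 on the plus strand for Rab3b, chr14:12823080-12823329 on the minus strand for Cadps and chr13:110280207-110280456 on the minus strand for Rab3c. In the GENCODE M21 annotation of the same build the genes span chr5:14514918-14863459, chr14:27622428-28478537, chr16:37114942-37384962, chr4:108879063-108943324, chr14:12372563-12823079 and chr13:110054187-110280996 in that order, so that the window of Rab3c lies within the GENCODE span and the others outside it.
Pclo: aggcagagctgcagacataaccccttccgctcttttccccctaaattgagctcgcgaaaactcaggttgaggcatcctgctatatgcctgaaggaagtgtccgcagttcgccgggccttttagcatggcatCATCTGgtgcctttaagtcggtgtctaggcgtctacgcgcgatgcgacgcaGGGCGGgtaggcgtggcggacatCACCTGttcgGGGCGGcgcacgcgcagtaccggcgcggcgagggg
Erc2: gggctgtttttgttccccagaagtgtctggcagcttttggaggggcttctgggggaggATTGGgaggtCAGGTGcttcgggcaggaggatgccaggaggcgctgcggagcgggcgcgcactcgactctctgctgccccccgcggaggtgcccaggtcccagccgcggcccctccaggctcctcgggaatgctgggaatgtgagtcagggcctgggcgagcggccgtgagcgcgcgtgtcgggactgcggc
Stxbp5l: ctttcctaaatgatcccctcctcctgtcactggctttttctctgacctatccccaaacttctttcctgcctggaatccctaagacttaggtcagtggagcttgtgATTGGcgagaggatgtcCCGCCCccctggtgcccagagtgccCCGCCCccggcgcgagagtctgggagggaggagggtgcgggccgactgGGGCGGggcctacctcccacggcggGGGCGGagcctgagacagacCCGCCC
Rab3b: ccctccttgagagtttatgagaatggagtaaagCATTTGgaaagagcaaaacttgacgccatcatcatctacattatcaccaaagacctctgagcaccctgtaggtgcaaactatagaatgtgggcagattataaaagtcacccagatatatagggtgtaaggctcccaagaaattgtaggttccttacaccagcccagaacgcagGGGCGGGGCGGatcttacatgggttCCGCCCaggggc
Cadps: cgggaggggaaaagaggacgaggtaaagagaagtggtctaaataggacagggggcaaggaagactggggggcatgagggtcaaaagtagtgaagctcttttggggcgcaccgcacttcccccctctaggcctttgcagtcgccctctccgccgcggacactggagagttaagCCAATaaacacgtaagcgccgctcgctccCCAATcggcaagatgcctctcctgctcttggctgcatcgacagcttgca
Rab3c: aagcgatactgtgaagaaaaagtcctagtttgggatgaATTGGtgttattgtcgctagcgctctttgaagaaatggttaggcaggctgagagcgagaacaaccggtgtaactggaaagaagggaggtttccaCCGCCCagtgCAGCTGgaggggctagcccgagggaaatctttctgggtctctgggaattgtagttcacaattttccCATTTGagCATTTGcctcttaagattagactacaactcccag
GC boxes were counted 2 times for Pclo, 0 for Erc2, 5 for Stxbp5l, 3 for Rab3b (2 of them sharing 1 base), 0 for Cadps and 1 for Rab3c. Cadps held 2 CCAAT boxes and no E-box, and Rab3c held 3 E-boxes. Over the 30 genes of the list with an entry, 21 windows held a GC box, 9 a CCAAT box and 24 an E-box. Of all 32851 windows, 32.7% held a GC box, 33.8% a CCAAT box and 66.2% an E-box. Of genes highest in the same group, Stxbp5l and Rab3b both held GC boxes, Pclo and Erc2 both held an E-box, and Cadps and Rab3c both held a CCAAT box. No motif was particular to a group. GC boxes were also in Pclo and Rab3c, E-boxes also in Rab3b and Rab3c, and CCAAT boxes also in Erc2 and Stxbp5l.

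Levels of the group sums were also seen as shares of cells. Each cell was thinned to 4000 UMIs without hormones, which left out 1 insulin cell, and the share with at least 1 UMI was taken per library with its 95% exact binomial interval, which covers counting error only. Leukocyte-marker cells, which have no hormone granules, served as background, at median depths of 10939 and 11353 UMIs against 10187 to 20180 in the single-hormone sums. Pclo was counted in 95.6% (91.5 to 98.1) and 94.2% (89.8 to 97.1) of insulin-only cells in libraries 1 and 2, in 37.4% (30.3 to 44.8) and 32.2% (25.3 to 39.7) of Gcg-only cells, and in 0% (0 to 8.04) and 2.33% (0.0589 to 12.3) of leukocyte-marker cells. Cadps was counted in 59.9% (52.4 to 67.1) and 61.5% (53.8 to 68.8) of Gcg-only cells. In Sst-only cells Cadps was at 2.86% (0.0723 to 14.9) and 0% (0 to 14.8), close to the background of 2.27% (0.0575 to 12.0) and 0% (0 to 8.22), and by the floor of 3 counts the 0 of 23 cells in library 2 allows a share of cells with a UMI, not of expressing cells, of up to 13.0%.

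Rab3c was counted in 46.7% (39.3 to 54.2) and 47.1% (39.5 to 54.8) of Gcg-only cells but in 4.40% (1.92 to 8.48) and 1.06% (0.128 to 3.77) of insulin-only cells, whose intervals overlap that of the background at 0 of 44 and 0 of 43 cells. Rab3b was in 71.4% (53.7 to 85.4) and 56.5% (34.5 to 76.8) of Sst-only cells and in 11.5% (7.29 to 17.1) and 13.2% (8.57 to 19.2) of Gcg-only cells. Stxbp5l was in 48.6% (31.4 to 66.0) and 39.1% (19.7 to 61.5) of Sst-only cells and in 8.24% (4.69 to 13.2) and 9.52% (5.74 to 14.6) of insulin-only cells. The group differences of these genes were thus carried by many cells. Stx4a and Vamp3 were counted in leukocyte-marker cells about as often as in insulin-only cells, with mean shares of 44.9% and 24.1% against 38.5% and 26.7%. Stxbp2 and Vamp8 were not far below, at 31.1% and 28.7% against 37.4% and 36.9%. For these genes the leukocyte-marker cells are therefore another cell type to compare with and no background. Over all 35 genes, 12 were counted in at least 50% of thinned cells of some single-hormone group. That number was 29 without thinning and 6 at 2000 UMIs, so it depends on depth.

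**Figure D3:**
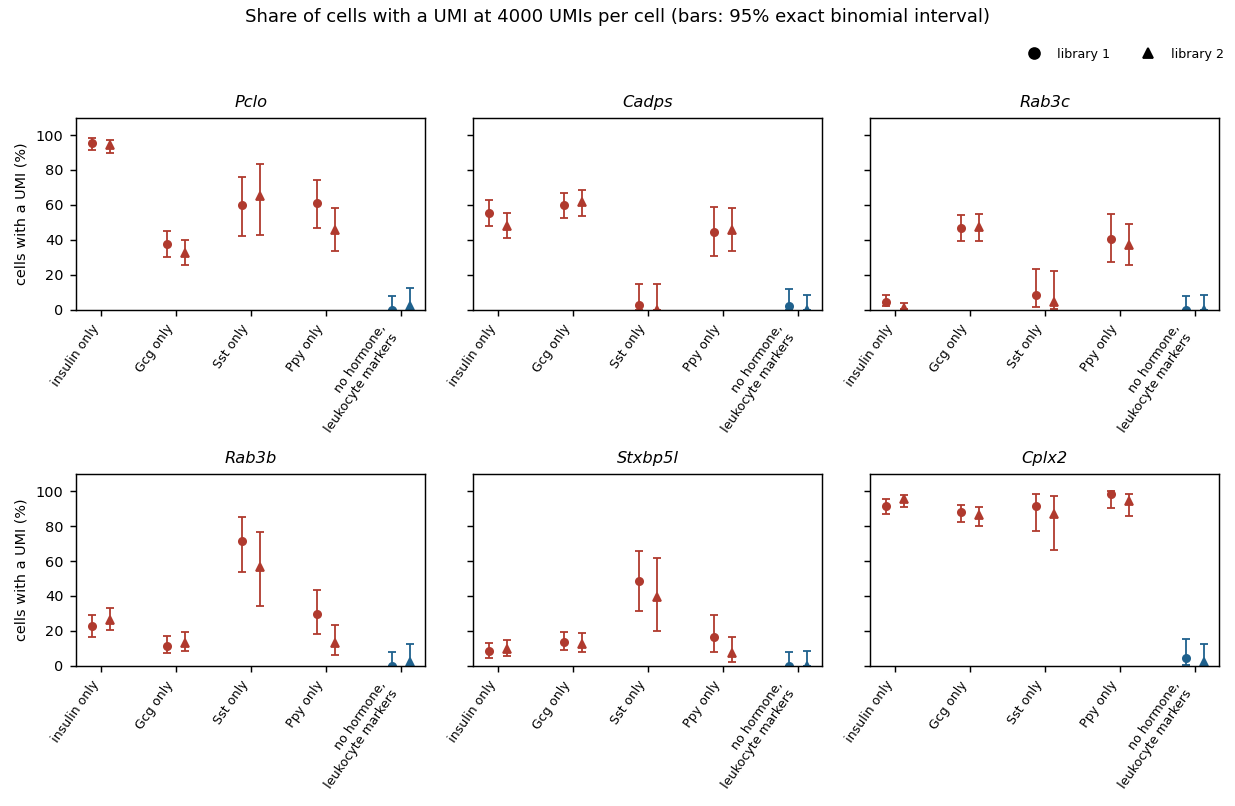
Share of cells with at least 1 UMI (%) for 6 genes after thinning to 4000 UMIs per cell, with circles for library 1, triangles for library 2 and bars for the 95% exact binomial interval; red marks single-hormone groups and blue the leukocyte-marker cells used as background. Cplx2 is high in all 4 hormone groups (86.2% to 98.1%), while the other 5 genes differ by group, with Cadps in Sst-only cells at the level of the background.

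Cells with several hormones were compared with a single-hormone group, and no gene of the list passed, which does not show that the groups are alike. Gcg and Ppy against Gcg only gave 0 calls among the 33 genes (edgeR; 3 at an unadjusted p below 0.05, and 0 adjusted and 1 unadjusted by DESeq2), where 0.0344% of all genes were called. Sst and Ppy against Sst only gave 0 as well (1 unadjusted, and 0 adjusted and 1 unadjusted by DESeq2), beside 0.0138%. Cells with Sst and Ppy had Stxbp5l at 204 and 189 CPM, Rab3b at 264 and 229 and Erc2 at 128 and 109, close to the values of Sst only. Cadps was at 18.6 and 26.5 CPM in them, a rate ratio of 8.51 (95% exact interval 2.23 to 72.2) over Sst only with adjusted p = 0.754, and 3 of the 14 cells with a UMI held 49.0% of it. Cells with Gcg and Ppy had Sv2b at 43.9 and 48.0 CPM and Rab3c at 164 and 186. Their Sv2a, at 69.0 and 82.1 CPM, stood between Gcg only and Ppy only. The small group of insulin plus another hormone, whose partner hormone varies, was between groups for Pclo (667 and 813 CPM) and Stxbp5l (67.7 and 74.2 CPM). Whether these barcodes hold a single cell each was not tested beyond the doublet caller, and that caller marked 16 of all 1483.

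Endocrine cells were then set against the no-hormone cells to ask which genes of the list mark hormone cells at all. The mean of the 4 single-hormone groups differed from no hormone in 21 of 33 genes (all genes 59.9%), higher in 18 and lower in 3, where 24.7% of all genes were higher and 35.2% lower, with a median of all genes at -0.12 on the log2 scale. The 5 largest log2 fold changes passing the test were those of a tomosyn, a complexin, a scaffold and both phosphatase-like granule genes. Stxbp5l gave 3.64 ± 0.23 with adjusted p = 7.27e-10, Ptprn2 3.38 ± 0.14 with adjusted p = 7.14e-12, Cplx2 3.19 ± 0.12 with adjusted p = 2.06e-12, Rims2 3.17 ± 0.17 with adjusted p = 7.79e-11 and Ptprn 3.07 ± 0.21 with adjusted p = 2.08e-09. Cplx2, for example, was at 86.1 and 70.0 CPM in no-hormone cells, below each hormone sum. Unc13a, Rab27a, Rph3al, Pclo, Rab3b and Unc13b followed, from 2.90 down to 2.04. Lower in endocrine cells were Vamp3 (-0.98 ± 0.12 with adjusted p = 2.37e-06), Stx4a (-0.44 ± 0.12 with adjusted p = 0.00365) and Napb, whose case is given next.

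Several genes could not be read in this contrast as it stood, because the 2 Tubb3-rich barcodes held over 50% of the UMIs of the no-hormone group in library 2 for 19 of the 35 genes. The same count over all genes was not made. Snap25 was at 11.9 and 314 CPM in the no-hormone cells of library 1 and 2, and those barcodes held 437 and 212 of the 677 UMIs of library 2. The same held for Napb, with 282 and 131 of 420 UMIs, and for Rab3c, with 214 and 79 of 297. Without them Snap25 was at 14.9 CPM in the no-hormone cells of library 2, and endocrine cells were higher by 4.28 ± 0.15 with adjusted p = 3.28e-15, against 0.69 ± 0.50 with adjusted p = 0.251 with them. Napb turned from -1.67 ± 0.49 with adjusted p = 0.00739 to 2.39 ± 0.30 with adjusted p = 5.31e-07. Rab3c went from -0.86 ± 0.58 with adjusted p = 0.215 to 4.25 ± 0.37 with adjusted p = 2.32e-09, and Cadps from 0.29 ± 0.60 with adjusted p = 0.701 to 2.14 ± 0.44 with adjusted p = 2.53e-04. With these barcodes left out, 27 genes of the list were called (all genes 62.8%), 24 higher and 3 lower (Vamp3, Vamp8, Stx4a), beside 26.5% and 36.3% of all genes. In the same fit the genes called between Sst only and Ppy only went from 6 to 10, beside 10.9% of all genes.

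**Figure D4:**
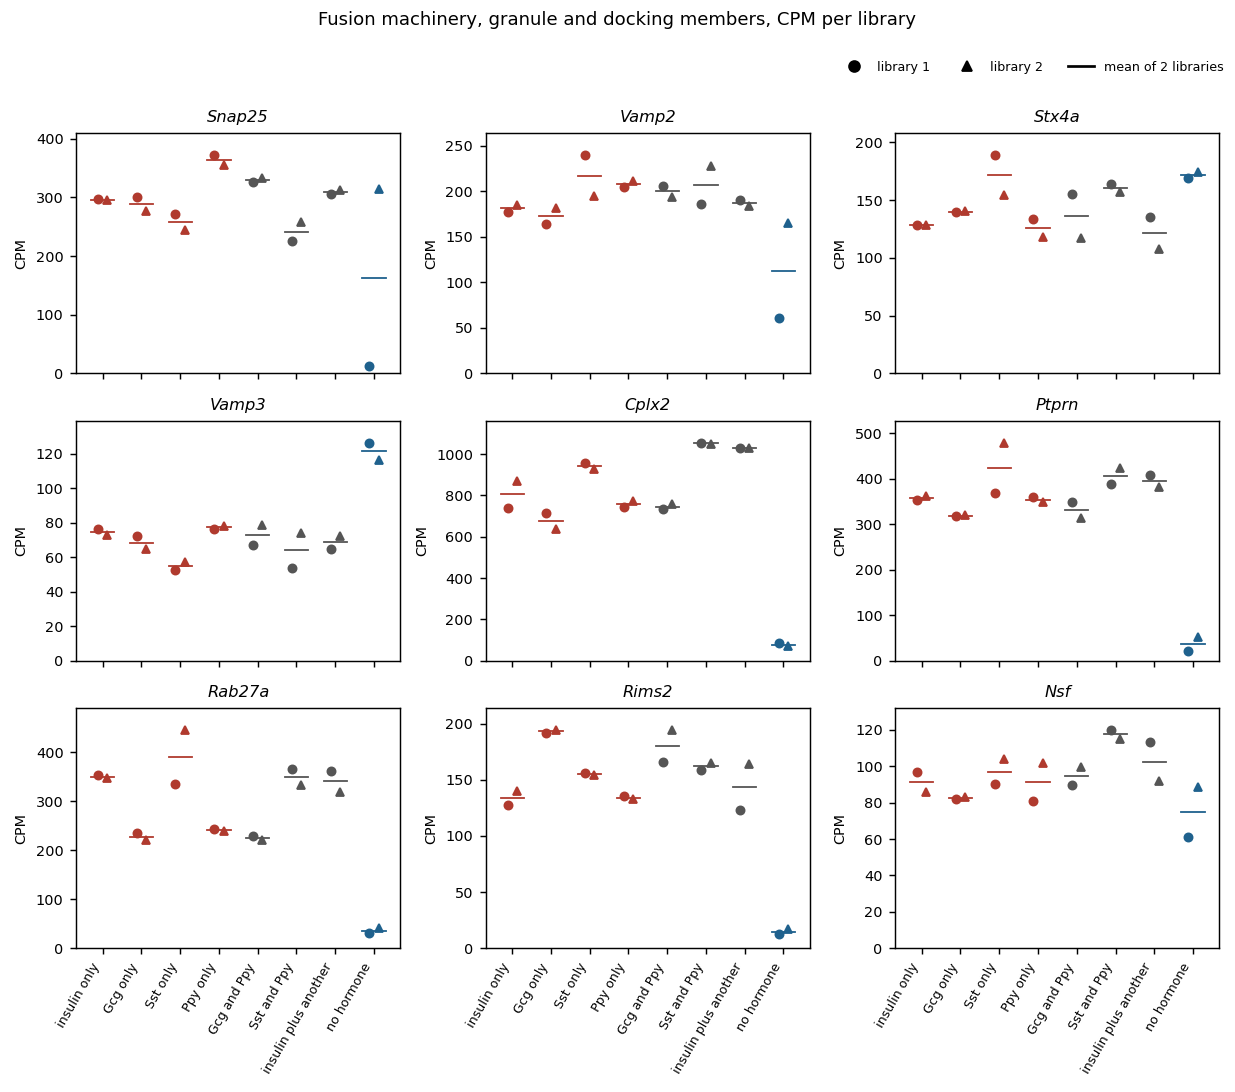
Levels of 9 genes of the fusion complex, granule membrane and docking (CPM, vertical axes from 0) in the 8 cell groups, drawn with circles for library 1, triangles for library 2 and lines for the mean. The 4 single-hormone groups lie close together for most of them, Cplx2, Ptprn, Rab27a and Rims2 fall in no-hormone cells, Vamp3 rises there, and Snap25 and Vamp2 differ between libraries in the no-hormone group.

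The 2 Tubb3-rich barcodes were also looked at by themselves. Their Tubb3 level was 2584 and 2376 CPM, against 0.586 to 16.8 CPM in the single-hormone sums. Of the 35 genes, 15 were above every single-hormone sum when both barcodes were added and 11 were below. How many of all genes lay outside that range was not counted, so these numbers show nothing particular to the list. Snap25 was at 2466 and 2209 CPM, Napb at 1591 and 1365, Rab3c at 1208 and 823, Vamp2 at 931 and 969 and Cplx1 at 559 and 646. Cplx1, a complexin known from synapses, was nearly confined to these barcodes in that group, with 99 and 62 of the 162 UMIs of no-hormone cells. Below the endocrine range were Cplx2 at 107 and 62.5 CPM, Rab27a at 45.1 and 10.4, Rph3al at 5.64 and 0 and Ptprn2 at 124 and 125. Outside the list, the synaptic vesicle genes Syn2, Sv2c and Syp were at 1947 and 1605, 468 and 625 and 401 and 604 CPM, above the highest single-hormone sums of 81.3, 4.43 and 165 CPM. These are values of 2 barcodes of 1 library, with no replicate, and were chosen after their values were seen.

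**Figure D5:**
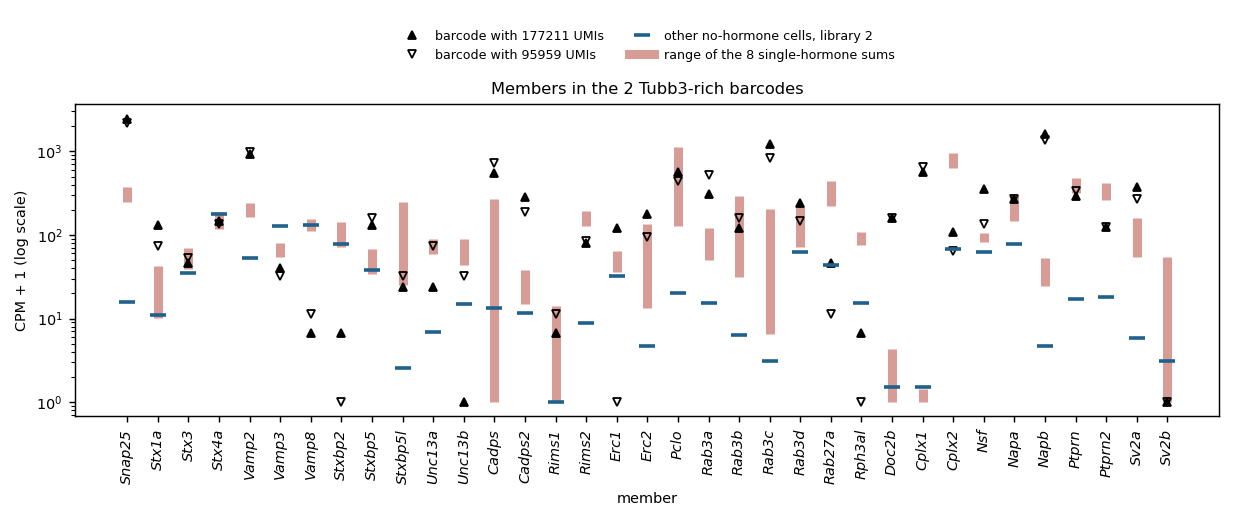
Levels of the 35 genes (CPM + 1, log axis) in the 2 Tubb3-rich barcodes (filled and open triangles), in the other no-hormone cells of library 2 (blue dashes) and as the range of the 8 single-hormone sums (red bars). Snap25, Napb, Rab3c, Vamp2 and Cplx1 lie above the red bars, and Cplx2, Rab27a, Rph3al and Ptprn2 below them.

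Other genes of exocytosis, 48 by name, served as context, and 37 of the 47 found were tested. In the contrasts insulin to Gcg, insulin to Sst, insulin to Ppy, Gcg to Sst, Gcg to Ppy and Sst to Ppy, the numbers higher and lower in the first group were 8 and 4, 4 and 2, 3 and 4, 3 and 4, 2 and 4, 2 and 5. As shares these were 32.4, 16.2, 18.9, 18.9, 16.2, 18.9%, beside 25.6, 14.7, 20.7, 12.8, 9.84, 9.47% of all genes. Rims3, a short RIM protein, was at 146 and 167 CPM in insulin only against 0 to 11.1 CPM in the other single-hormone sums, and exceeded Gcg only by 5.15 ± 0.52 with adjusted p = 1.05e-06. Baiap3, a Munc13-related protein of dense-core granule traffic, was at 244 and 215 CPM in Sst only, 156 and 150.2 in Gcg only, 62.7 and 64.9 in insulin only and 14.6 and 12.3 in Ppy only. The 4 groups did not overlap, and Sst minus Ppy was 4.01 ± 0.22 with adjusted p = 6.18e-09. Rab27b, the paralog of Rab27a, had 1 UMI in insulin only and 0 in Sst only, against 12.6 and 10.3 CPM in Gcg only and 17.2 and 27.0 in Ppy only, a rate ratio of 117 (95% exact interval 20.3 to 4689) for Ppy only over insulin only (adjusted p = 5.22e-06). It was higher still, at 133 and 131 CPM, in the 32 no-hormone cells outside the marker and Tubb3-rich sets.

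Rab3il1, an exchange factor for Rab GTPases, was at 7.62 and 6.02 CPM in Gcg only and had 0 UMIs in insulin only, so that Gcg only was at least 11.5-fold higher (adjusted p = 9.81e-04). Pak1, a kinase of the actin cytoskeleton, was at 4.19 and 1.06 CPM in Gcg only and 26.6 and 32.2 in Ppy only, a Gcg minus Ppy difference of -3.47 ± 0.48 with adjusted p = 1.52e-04. Ppfia4, a liprin, had 0 UMIs in Gcg only and 2 and 8 in Ppy only, at least 6.33-fold higher (adjusted p = 0.0349). Leukocyte-marker cells held 54 and 76 UMIs of Ppfia4 (75.4 and 104 CPM) and had Pak1 at 72.6 and 80.7 CPM. In library 2 leukocyte markers were at 286 CPM in Ppy only and 19.1 CPM in Gcg only. Whether the Ppfia4 or Pak1 UMIs of Ppy only came from cells with leukocyte markers was not tested. The calls of both Pak1 and Ppfia4 rest on few counts. Against no-hormone cells, 14 of the 37 were higher and 11 lower in endocrine cells, or 67.6% together. Of all genes, 24.7% were higher and 35.2% lower, or 59.9% together.

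Subunits of the exocyst, the complex that tethers vesicles before fusion, had 1 and 1, 0 and 1, 1 and 1, 1 and 0, 0 and 0, 0 and 0 of 9 higher and lower in the same 6 contrasts, or 22.2, 11.1, 22.2, 11.1, 0, 0%, against the shares of all genes just given. Exoc6 was at 24.7 and 19.8 CPM in insulin only and 77.3 and 91.5 in Ppy only, lower in insulin only at a log2 fold change of -1.89 ± 0.23 with adjusted p = 1.36e-05. Exoc4 was at 141 and 134 CPM in Gcg only and 79.1 and 77.1 in Sst only, higher in Gcg only by 0.92 ± 0.20 with adjusted p = 0.00421. Of 22 tested SNAREs of other compartments (25 named), 5 and 2, 5 and 0, 4 and 2, 3 and 0, 1 and 2, 0 and 5 were higher and lower, or 31.8, 22.7, 27.3, 13.6, 13.6, 22.7%. Stx16, a syntaxin of the trans-Golgi network, was at 208 and 215 CPM in Gcg only and 86.4 and 82.1 in insulin only, with insulin minus Gcg at -1.30 ± 0.15 with adjusted p = 4.47e-06. Bet1, a SNARE of traffic from the endoplasmic reticulum to the Golgi, was at 97.4 and 91.4 CPM in insulin only and 52.7 and 36.9 in Sst only, with insulin minus Sst at 1.17 ± 0.24 with adjusted p = 0.00269. Endocrine cells against no hormone gave 3 higher and 1 lower of the 9 exocyst genes, and 8 higher and 5 lower of the 22 SNAREs. These were 44.4% and 59.1%, beside 59.9% of all genes (24.7% higher and 35.2% lower).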

How the data were processed

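The authors deposited one table of raw UMI counts per library, made with Cytonaut (barcodes chosen at the UMI-tools knee, exons only, GRCm38, Ensembl annotation). The aligner is not given in the sources used here, nor is use of strand. The tables held 735 and 748 barcodes with 15931154 and 17440292 UMIs. A minimum of 200 genes and a maximum of 20% mitochondrial UMIs removed 0 cells. Doublets called by Scrublet (16) were kept. Cells were grouped by the hormones reaching 1% of UMIs, the 5 hormone genes were removed, and counts were summed per library and group. The 16 sums were fitted together with edgeR 4.0.16 in R 4.3.3 (TMM, filterByExpr, quasi-likelihood F test, 8 residual degrees of freedom), with Benjamini-Hochberg adjustment over 14528 genes and a threshold of 0.05. The SE of a log2 fold change was taken from the F statistic. The fit was tested on simulated data. Python 3.11.15 and scanpy 1.11.5 were used for the rest.

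The genes described, the other lists and the tests were chosen with earlier results of these data known. Genes called in at least 1 of the 6 contrasts between single-hormone groups are named with values, though Unc13a, Rab3a and Rph3al not per library for every group. Of the other genes of the list, Snap25, Vamp2, Cplx2 and Ptprn are given per library, and the rest mostly by range. From the other lists the called genes with the largest changes are named, up to 6 of the other exocytosis genes and 2 of each remaining list. Clopper-Pearson intervals and floors of 3 counts cover counting error only. Same-numbered sums come from the same library, so the library was tried as a replicate block. Deviations of same-numbered sums from their group means correlated from -0.032 to 0.0971 (median 0.0146, 28 pairs of groups). Alternatives were DESeq2 1.42.0, its size factors, no count filter, other hormone thresholds, fewer groups or cells, doublets removed, and 3 chosen after seeing the data: leaving out the Tubb3-rich barcodes, a no-hormone group of marker cells alone, and leaving out 20 hormone cells with other markers.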

Additional observations from a re-analysis of the deposited data

How the results depend on the processing

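The counts of genes called stayed within 1.5 times of the reported ones in 112 of 122 recomputed values. Shares of all genes called were not counted for the alternatives, except without the Tubb3-rich barcodes in the contrasts given above. With 23 cells in every sum, 6, 6 and 6 genes were called for insulin only against Gcg only, Sst only and Ppy only, and 0 for Gcg only against Ppy only. With only the 4 single-hormone groups in the fit, Gcg only against Ppy only gave 7 and Sst only against Ppy only 10. The latter was also 10 without a filter on low counts, without the Tubb3-rich barcodes and with no-hormone cells limited to marker cells. Without the filter 1 gene was called between Sst and Ppy and Sst only. Leaving out the 20 hormone cells with endothelial or leukocyte markers gave 14, 11 and 12 genes for insulin only against Gcg only, Sst only and Ppy only. It gave 10 for Gcg only against Sst only, 5 for Gcg only against Ppy only and 7 for Sst only against Ppy only. Shares of at least 50% were reached by 29 genes without thinning and by 6 at 2000 UMIs. Of 75 gene results, recomputed 1171 times, 1072 values kept their direction and call or, where no test was run, stayed within the spread between libraries, 42 no longer passed (22 of them with fewer cells), 53 untested values moved and 4 turned direction: Unc13a, insulin only against Gcg only, at 0.38 with fewer cells, and Napb, endocrine against no hormone, at 2.39 without the Tubb3-rich barcodes, 3.24 with marker cells alone and 1.68 without library 2. Without library 1 Napb was at -2.46. Leaving out a library left no residual degrees of freedom, so no calls could be counted, and 29 and 29 of the 35 levels stayed within the spread between libraries. With the library as a replicate block (7 residual degrees of freedom), Rph3al, insulin only against Ppy only, no longer passed (adjusted p = 0.0537), Pclo, Gcg only against Ppy only, passed (adjusted p = 0.0414), and counts of calls were 14, 10, 10, 9, 5 and 6 in the 6 contrasts. At a hormone threshold of 5% the group of Sst and Ppy had fewer than 10 cells in a library and its contrast was not run; at 0.5% Rab3c no longer passed for Gcg only against Sst only (adjusted p = 0.0651). The cause of these changes was not tested. Depth limits what can be said of genes with few UMIs, such as Rims1, Doc2b and Cplx1.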
